A study of Mus musculus with 4 samples.

Results

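The 10 genes described here belong to the MHC class I antigen presentation pathway, and they were chosen by symbol: B2m, H2-K1 and H2-D1 (the class I molecule), Tap1, Tap2 and Tapbp (peptide transport and loading), Psmb8 and Psmb9 (immunoproteasome), Erap1 (peptide trimming) and Nlrc5 (transcriptional regulator). They are 10 of 22911 genes that the arrays represent by symbol, and 15 probes measured them, 1 probe for 5 of the genes and 2 probes for the other 5. RNA came from subcutaneous Bcr-Abl+ tumors of Wt mice and of mice without Sipa1, a GTPase-activating protein for Rap. Tumors were taken on day 12 after hematopoietic progenitor cells carrying Bcr-Abl and GFP had been injected in Matrigel into C57BL/6Ncr mice aged 8 weeks, 5 mice per genotype. From each genotype, mesenchymal stroma cells (MSCs), defined only by the absence of GFP, CD45, Ter119 and CD31, and GFP-negative CD8+ TCRβ+ T cells were sorted. Each of the 4 conditions was hybridized to 1 array, and whether the RNA of the 5 mice was pooled is not given in the sources used here. Hence no difference below has a replicate check, no test or p-value was computed, and the number of arrays limits the precision.

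Class I molecules display peptides of cytosolic and nuclear proteins at the cell surface, where CD8+ T cells read them. Proteasomes cut the proteins, the TAP transporter carries peptides into the endoplasmic reticulum, aminopeptidases trim them, and tapasin helps to load them onto a heavy chain paired with β2-microglobulin. Interferon-γ raises much of the pathway, and NLRC5 acts as its dedicated transactivator, at promoters that carry the S, X and Y boxes.

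In the RefSeq table of assembly GRCm38.p6, 7 of the 10 genes lie on chromosome 17 and the other genes on chromosomes 2 (B2m), 8 (Nlrc5) and 13 (Erap1). Psmb9, Tap1, Psmb8 and Tap2 follow each other on chromosome 17 with 0 protein-coding genes between neighbors. Promoter sequences from RefSeq were found for 8 of the 10 genes, not for Tap2 and Nlrc5. Those of the 3 genes that encode the class I molecule and of the pair Psmb9 and Tap1 are shown because these genes stood on opposite sides in the MSC comparison. The first 3 are the 250 bases before the start site, read in the direction of the gene, and the last is the 225 bases between the start sites of Psmb9 (minus strand) and Tap1 (plus strand), read in the direction of Tap1. Capitals mark matches on either strand to the κB type motif, the core of the interferon-stimulated response element, a shorter element of that kind (GAANNGAAA), the X2 box (TGACG), the Y box (CCAAT) and the GC box (GGGCGG). The κB type motif is the first run of capitals in H2-K1 and H2-D1, and the interferon-stimulated core is the first in B2m.
H2-K1, chr17:34000348-34000597, minus strand: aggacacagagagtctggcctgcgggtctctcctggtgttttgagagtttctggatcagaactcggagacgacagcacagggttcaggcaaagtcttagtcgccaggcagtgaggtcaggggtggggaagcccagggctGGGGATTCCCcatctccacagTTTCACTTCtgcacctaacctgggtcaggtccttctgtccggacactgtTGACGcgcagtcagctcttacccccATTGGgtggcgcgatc
H2-D1, chr17:35262844-35263093, plus strand: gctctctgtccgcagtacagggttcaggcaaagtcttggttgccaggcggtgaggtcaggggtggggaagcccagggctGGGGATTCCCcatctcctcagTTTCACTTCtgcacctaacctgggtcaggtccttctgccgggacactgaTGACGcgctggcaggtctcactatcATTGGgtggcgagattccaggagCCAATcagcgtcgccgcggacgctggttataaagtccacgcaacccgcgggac
B2m, chr2:122147437-122147686, plus strand: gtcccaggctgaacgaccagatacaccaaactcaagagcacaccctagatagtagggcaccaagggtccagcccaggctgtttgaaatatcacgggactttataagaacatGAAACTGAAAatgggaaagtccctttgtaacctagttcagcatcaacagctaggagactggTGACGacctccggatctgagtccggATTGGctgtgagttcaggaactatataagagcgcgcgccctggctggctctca
Psmb9 and Tap1, chr17:34187331-34187555, plus strand: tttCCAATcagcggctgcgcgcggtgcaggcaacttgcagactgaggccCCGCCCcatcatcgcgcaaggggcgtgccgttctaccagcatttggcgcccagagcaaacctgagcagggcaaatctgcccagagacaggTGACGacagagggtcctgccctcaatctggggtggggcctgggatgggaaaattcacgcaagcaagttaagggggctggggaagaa

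H2-K1 and H2-D1 were alike over 87.4% of 190 aligned bases, and both held the κB type motif, the shorter interferon-type element, the X2 box and the Y box in the same order. The κB type motif was in 1.44% of the 27025 promoters of the table and in 2 of the 8 member promoters. The interferon-stimulated core, in 3.05% of all promoters, was found among the members only in B2m, and the shorter element, in 6.35%, only in H2-K1 and H2-D1. The Y box was in 6 of the 8 members against 34.5% of all promoters, and the X2 box in 5 of the 8, which are H2-K1, H2-D1, B2m, Tap1 and Psmb9, against 17.8%. The window of Psmb9 overlaps that of Tap1, so these 2 genes share the same Y box, X2 box and GC box. The GC box was in 3 of the 8 members against 33.0%. The GAS motif (TTCNNNGAA) was in 1 of the 8, Psmb8, against 7.14%. Erap1 held none of the motifs. The X2 box and the shorter element were added to the search after these sequences and the array values had been seen. Setting their counts against all promoters therefore tests nothing. A match is a match of letters in this window and no more.

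Levels are given as the log2 of a probe's processed signal minus the 75th percentile of its array, so 0 is the 75th percentile and a step of 1 is a factor of 2. A level can be compared for the same probe between arrays and not between probes. A log2 ratio is the difference between a pair of arrays, averaged over the probes of a gene that passed the quality flags on both. Among probes printed on 10 spots the noise of a log2 ratio had an SD between 0.058 and 0.061, which covers spots on 1 array and not mice. All 4 arrays were on 1 slide and in 1 scan. Between 59.7% and 64.3% of spots passed all 5 flags, and 13 of the 15 probes did so on every array.

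The labels were compared with marker genes. All 15 CD8+ T cell markers were well above background on both CD8+ T arrays, with a median level of 6.13 (Wt) and 6.07 (Sipa1-/-) against -0.19 and -0.31 on the MSC arrays, and Cd8a was not well above background on the Wt MSC array. All 17 fibroblast markers were well above background on both MSC arrays, with a median level of 5.41 (Wt) and 6.56 (Sipa1-/-). The Wt MSC array also carried all 16 B-lineage markers well above background, at a median level of 4.17 against 0.59 on the Sipa1-/- MSC array. The 16 leukocyte markers had medians of 3.58 and 1.00. Granulocyte markers had medians of 4.95 (Wt) and 5.21 (Sipa1-/-) on the MSC arrays and 3.84 and 2.43 on the CD8+ T arrays. Erythroid markers had medians of 3.44 and 3.19 on the MSC arrays and -2.18 and -3.11 on the CD8+ T arrays. Sipa1, the deleted gene, was lower on both Sipa1-/- arrays, with ratios of -1.42 (MSCs) and -1.86 (CD8+ T cells), but its probes stayed well above background there, at mean levels of 2.62 and 2.56. Where these probes lie relative to the deleted sequence is not given in the sources used here.

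The first comparison asked how class I genes of tumor MSCs differed between Sipa1-/- and Wt hosts. The genes of the class I molecule, Tap2 and Tapbp were higher on the Sipa1-/- MSC array, whereas Tap1, Psmb8, Psmb9, Erap1 and Nlrc5 were lower. Nlrc5 was 2.58-fold lower and Psmb9 1.94-fold lower, and Tapbp was 1.83-fold higher. Of the 10 genes, 5 were higher and 5 lower, and their median log2 ratio was -0.08 against 0.04 for all 15283 genes measured. Only Nlrc5 was past 2-fold, 1 of 10 genes, where 30.7% of all genes were. For each of the 10 genes the sign of this ratio was the same under all alternatives that gave it a value. Under the median shift, however, H2-D1 fell to 0.06 and Tap2 to 0.07, close to the spot noise SD of 0.061. In a bulk population, fewer cells of a type and less RNA per cell cannot be told apart.

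B2m encodes β2-microglobulin, the light chain of every class I molecule. Its probe stood at 6.81 on the Wt MSC, 7.17 on the Sipa1-/- MSC, 7.42 on the Wt CD8+ T and 7.40 on the Sipa1-/- CD8+ T array, so that the MSC arrays were lower than the CD8+ T arrays and the Wt MSC array was the lowest. H2-K1 encodes the heavy chain H-2K. Its brighter probe stood at 7.38, 7.72, 8.28 and 8.34 on the arrays in the same order. Its other probe stood at 5.86, 6.24, 6.86 and 6.93, with the last of these not passing the flags although well above background. Both H2-K1 probes placed the 4 arrays in the same order, lowest on the Wt MSC array. H2-D1, the heavy chain H-2D, stood at 6.58, 6.78, 7.25 and 7.29, again lowest on the Wt MSC array. The log2 ratios of Sipa1-/- over Wt in MSCs were 0.36 for B2m, 0.36 for H2-K1 and 0.20 for H2-D1. Class I heavy chain genes resemble each other, and probe sequences were not used here, so signal from related genes in the H2-K1 and H2-D1 probes was not tested.

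**Figure D1:**
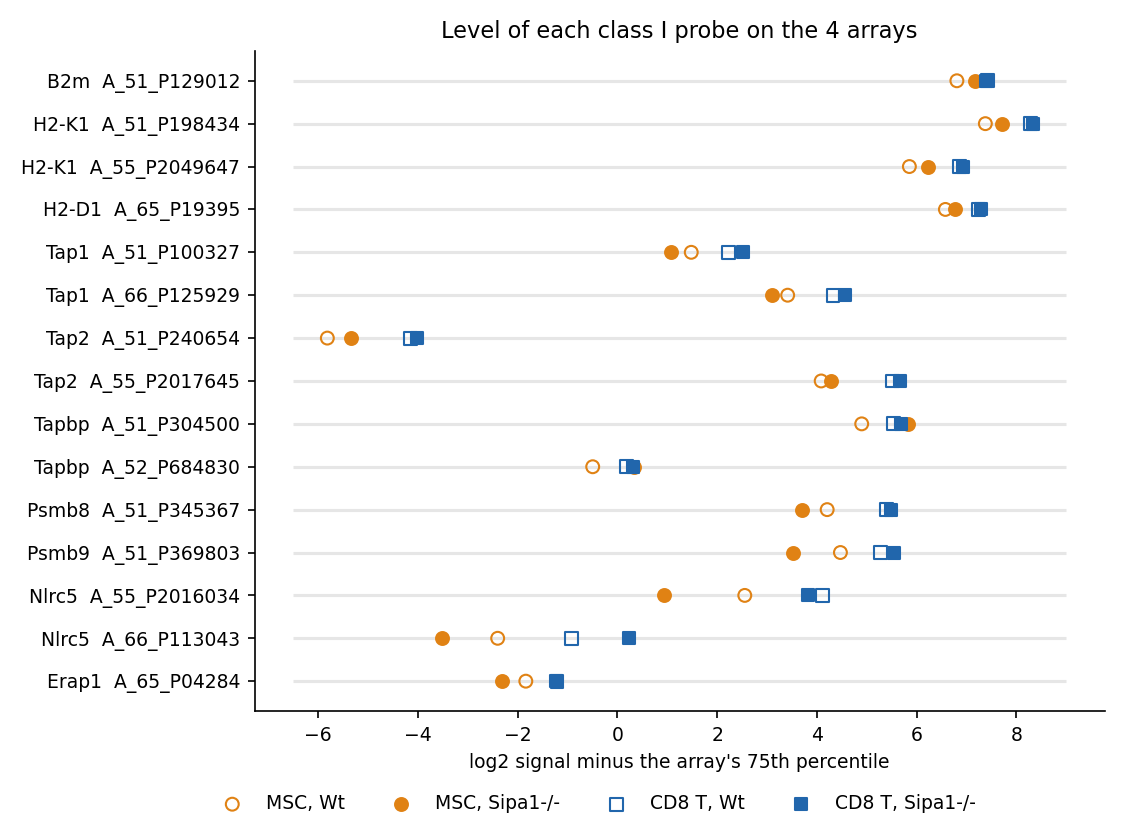
Level of each of the 15 probes (rows, gene and probe name) as log2 signal minus the 75th percentile of the array (horizontal axis). Open and filled circles are the Wt and Sipa1-/- MSC arrays, open and filled squares the Wt and Sipa1-/- CD8+ T arrays, with 1 array each. The squares lie to the right of the circles in 13 of 15 rows; in both Tapbp rows the filled circle is the rightmost point.

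Tap1 and Tap2 encode the chains of the peptide transporter, which works only as a pair. The brighter Tap1 probe stood at 3.42 (Wt MSC), 3.10 (Sipa1-/- MSC), 4.33 (Wt CD8+ T) and 4.56 (Sipa1-/- CD8+ T), and the dimmer at 1.48, 1.08, 2.24 and 2.51. Both Tap1 probes were lowest on the Sipa1-/- MSC array, and the gene had a log2 ratio of -0.36 in MSCs. The bright Tap2 probe stood at 4.09, 4.29, 5.52 and 5.67, lowest on the Wt MSC array, with a log2 ratio of 0.21. The other Tap2 probe lay near background, at -5.82, -5.34, -4.14 and -4.02, and was not well above background on the Wt MSC array. On that probe the Sipa1-/- MSC array read 1.39-fold and the Wt CD8+ T array 3.19-fold above the Wt MSC array. Its processed signals on the MSC arrays were only 0.36 (Wt) and 0.49 (Sipa1-/-) times the background, so these folds are imprecise. The chains of the transporter thus stood on opposite sides of Wt in MSCs, though Tap2 was only 0.07 under the median shift, close to spot noise.

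Tapbp encodes tapasin, which bridges the transporter and the empty class I molecule. Its brighter probe stood at 4.90 (Wt MSC), 5.83 (Sipa1-/- MSC), 5.53 (Wt CD8+ T) and 5.69 (Sipa1-/- CD8+ T), and its dimmer probe at -0.49, 0.33, 0.18 and 0.31. Tapbp was the only member that was highest on the Sipa1-/- MSC array, in both probes, although on the dimmer probe the gap to the Sipa1-/- CD8+ T array was 0.03, within spot noise. The probes gave log2 ratios in MSCs of 0.92 and 0.82, and their mean, 0.87, was the highest of the 10 genes.

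Psmb8 and Psmb9 encode the catalytic subunits β5i and β1i, which replace β5 and β1 in the immunoproteasome. Psmb8 stood at 4.21 (Wt MSC), 3.71 (Sipa1-/- MSC), 5.39 (Wt CD8+ T) and 5.48 (Sipa1-/- CD8+ T). Psmb9 stood at 4.47, 3.52, 5.27 and 5.55. Both were lowest on the Sipa1-/- MSC array and highest on the Sipa1-/- CD8+ T array, and their log2 ratios in MSCs were -0.50 and -0.96. Erap1, the aminopeptidase that trims peptides in the endoplasmic reticulum, stood at -1.84, -2.31, -1.21 and -1.23, also lowest on the Sipa1-/- MSC array, with a log2 ratio of -0.47.

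Nlrc5 had the widest range over the 4 arrays. Its brighter probe stood at 2.56 (Wt MSC), 0.94 (Sipa1-/- MSC), 4.12 (Wt CD8+ T) and 3.82 (Sipa1-/- CD8+ T), and its dimmer probe at -2.40, -3.51, -0.91 and 0.23. In MSCs both probes were lower on the Sipa1-/- array, by log2 ratios of -1.62 and -1.11, and the gene ratio was -1.37. In CD8+ T cells the probes disagreed, with -0.31 on the brighter and 1.14 on the dimmer, so the gene mean of 0.42 has no settled direction. B-lineage markers moved with this comparison: all 15 measured were at least 2-fold lower on the Sipa1-/- MSC array, and log2 of their summed level went from 9.60 to 5.61. All 16 leukocyte markers were lower as well, 15 of them at least 2-fold, with summed levels of 8.22 and 6.25. Among the most changed, Rag2, a subunit of the recombinase that cuts antigen receptor genes, had a log2 ratio of -5.80 and Cd37, a leukocyte tetraspanin, -3.56. The part of these cells in the lower values of Nlrc5, Psmb9, Psmb8, Tap1 and Erap1 was not tested. The 15 measured fibroblast markers were all higher, with a median log2 ratio of 1.56 and summed levels of 10.65 (Wt) and 11.40 (Sipa1-/-), and the part of stromal RNA in the higher values of Tapbp and the class I molecule was not tested either.

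**Figure D2:**
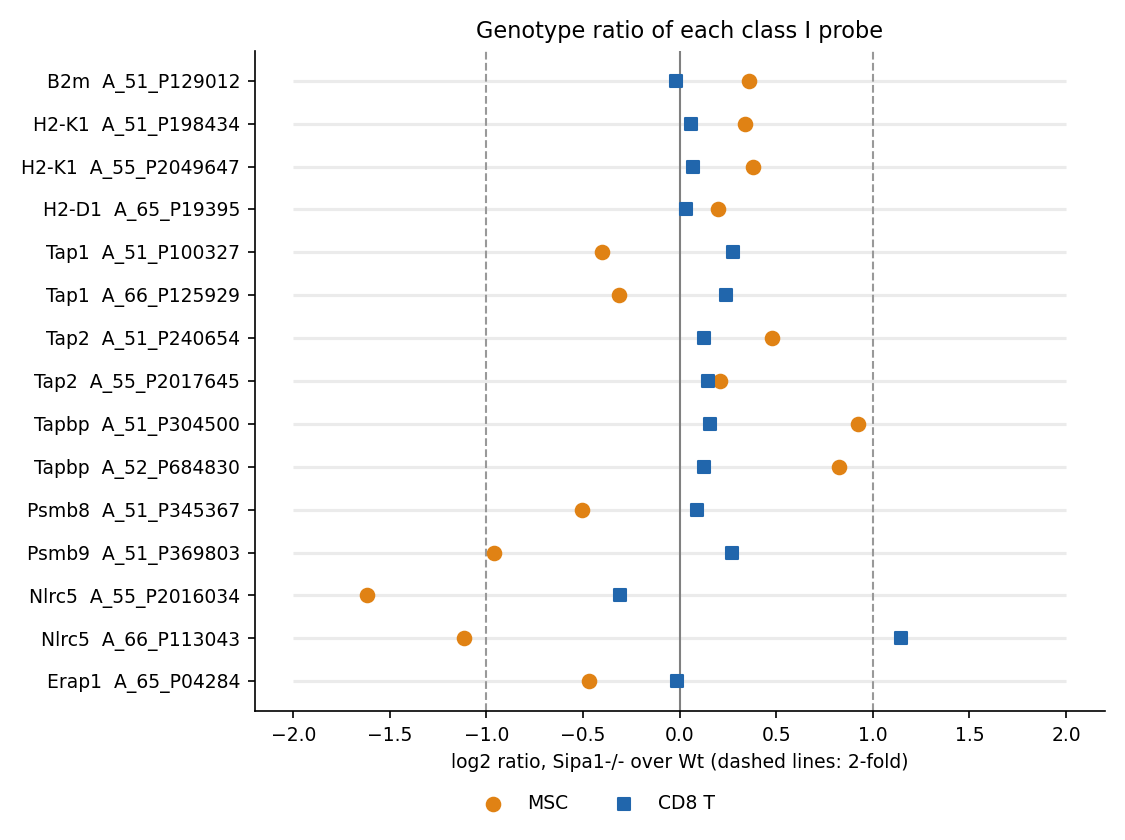
Log2 ratio of Sipa1-/- over Wt for each of the 15 probes (rows) in MSCs (circles) and CD8+ T cells (squares), from 1 array per condition; dashed lines mark 2-fold. In MSCs the ratios run from -1.62 to 0.92, whereas in CD8+ T cells all but the probes of Nlrc5 lie between -0.02 and 0.28.

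The same comparison was made in tumor CD8+ T cells. None of the 10 genes was past 2-fold in CD8+ T cells, where 4.06% of 14323 genes were, and the largest gene ratio was the unsettled 0.42 of Nlrc5. The median log2 ratio was 0.11 against -0.02 for all genes, and 8 of the 10 were above 0, where 46.1% of all genes were. Psmb9 (0.27) and Tap1 (0.26) had the highest ratios after Nlrc5 and kept their sign under every alternative. Tap2 and Tapbp had 0.14 each, Psmb8 0.09, H2-K1 0.06, H2-D1 0.04, and B2m and Erap1 -0.02 each, and for these 7 genes the sign turned under at least 1 alternative. Fibroblast markers were higher on the Sipa1-/- CD8+ T array too, 16 of 16 measured and 15 of them at least 2-fold, with summed levels of 8.02 (Wt) and 8.71 (Sipa1-/-), while 13 of 16 leukocyte markers were lower with a median log2 ratio of -0.07. Of 10 granulocyte markers 8 were lower, with a median of -1.20 and summed levels of 9.32 and 8.40. Erythroid markers were lower for 6 of 6, 4 of them at least 2-fold, at a median of -1.14, and 10 of 12 macrophage markers were higher at a median of 0.11. The part of these cells in the class I values was not tested.

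The ratios in the 2 cell types were set side by side for each gene. Tap1 and Psmb9 were lower on the Sipa1-/- MSC array and higher on the Sipa1-/- CD8+ T array than on the matching Wt array, with MSC ratios minus CD8+ T ratios of -0.61 and -1.23. For Nlrc5 the difference was -1.79, but only its dimmer probe was higher on the Sipa1-/- CD8+ T array. Over the 10 genes this difference was below 0 for 5 and above 0 for 5, with a median of -0.19, and over all genes it was below 0 for 50.6%. The difference was not tested, since each ratio came from 1 pair of arrays.

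MSCs were then compared with CD8+ T cells of the same genotype. Every one of the 10 genes was lower on the Wt MSC array than on the Wt CD8+ T array, though B2m turned to 0.10 under quantile normalization, and 53.4% of all 14210 genes were lower. The median log2 ratio was -0.82 against -0.06 for all genes. Nlrc5 (-1.53), Tap2 (-1.43) and Psmb8 (-1.18) were at least 2-fold lower, 3 of 10 genes against 12.8% of all genes. H2-K1 followed with -0.95, Tap1 with -0.83 and Psmb9 with -0.80, and H2-D1, Tapbp, Erap1 and B2m lay between -0.67 and -0.61.

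In Sipa1-/- mice the gap between the cell types was uneven. Nlrc5 was 9.94-fold, Psmb9 4.09-fold and Psmb8 3.43-fold lower on the MSC array, and Tap1, Tap2 and Erap1 were lower by 2.72-fold, 2.55-fold and 2.12-fold. These 6 of 10 genes were at least 2-fold lower, where 18.6% of 14279 genes were, and the median log2 ratio was -1.22 against -0.18 for all genes. In total 9 of the 10 were lower, as were 57.1% of all genes. By contrast B2m stood at -0.23, H2-K1 at -0.62 and H2-D1 at -0.51, all 3 of which turned above 0 under quantile normalization. With the series matrix B2m turned to 0.29 and H2-D1 to 0.016. Tapbp stood at 0.08, which turned to -0.14 under the median shift. The Nlrc5 fold averages 2 probes, with log2 ratios of -2.88 on the brighter and -3.75 on the dimmer. The dimmer Nlrc5 probe read only 1.75 times background on the Sipa1-/- MSC array. With normexp Nlrc5 was -2.63, Tap2 -0.97 and Erap1 -0.77, so Tap2 and Erap1 were then short of 2-fold. The Tap2 mean includes its probe near background. The cell type comparisons share arrays with the genotype comparisons and add no new measurement of them.

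**Figure D3:**
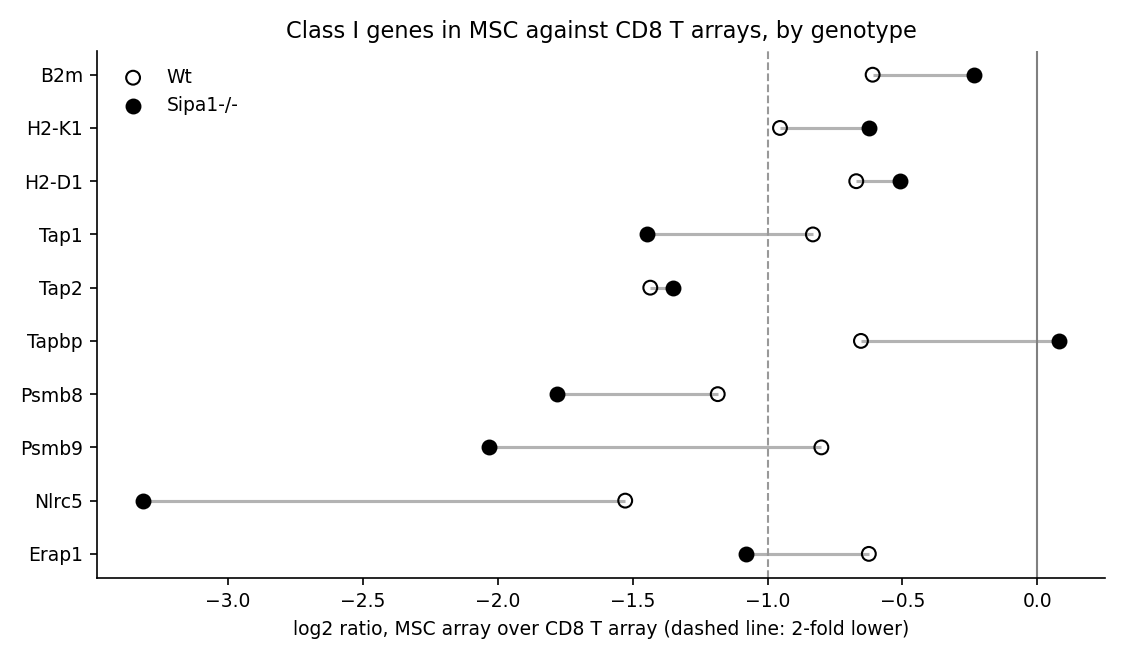
Log2 ratio of the MSC array over the CD8+ T array for each of the 10 genes (rows) in Wt (open circles) and Sipa1-/- mice (filled circles), 1 array per condition; the dashed line marks 2-fold lower. In Wt all points lie between -1.53 and -0.61, whereas in Sipa1-/- they spread from -3.31 for Nlrc5 to 0.08 for Tapbp. Because of the flags, H2-K1 rests on 2 probes in Wt and 1 in Sipa1-/-, and Tap2 on 1 in Wt and 2 in Sipa1-/-. On the brighter probe alone H2-K1 had -0.90 (Wt) and -0.62 (Sipa1-/-), and Tap2 had -1.43 and -1.38.

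At the level of probes, both CD8+ T arrays lay above both MSC arrays for 13 of the 15 probes. Of the 13 probes that passed the flags on every array it held for 11, and among all 19732 such probes for 39.1%. The exceptions were the Tapbp probes. Cell type and sort gate differed together in these comparisons. B-lineage markers were higher on the Wt MSC than on the Wt CD8+ T array, 14 of 14 measured with a median log2 ratio of 4.22, whereas in Sipa1-/- mice the median was 0.02, and their part in the gap was not tested. Erythroid markers were at least 2-fold higher on the MSC array for 6 of 6 measured in each genotype, with medians of 5.30 (Wt) and 6.92 (Sipa1-/-). Granulocyte markers had medians of -0.05 (Wt) and 1.47 (Sipa1-/-), and the part of both was not tested.

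The other genes of the pathway were read from the same MSC arrays, where 48.2% of all genes were lower and 51.8% higher in Sipa1-/-. Proteasome genes were lower on the Sipa1-/- MSC array, whether inducible or constitutive. Of them 0 were past 2-fold, where 30.7% of all genes were. All 4 measured of the other immunoproteasome genes were lower with a median log2 ratio of -0.53, among them Psmb10, the third inducible catalytic subunit (-0.23), and Psme1, a subunit of the 11S activator (-0.54). The constitutive catalytic subunits were lower too, Psmb5 by -0.52, Psmb6 by -0.52 and Psmb7 by -0.70, and so were 11 of 11 other 20S subunits, with a median of -0.48. Thus Psmb8 differed from its constitutive counterpart Psmb5 by only 0.02 in log2 ratio, within spot noise, whereas Psmb9 was lower than Psmb6 by a further -0.43 and Psmb10 stood 0.47 above Psmb7. Of 7 measured peptidases 5 were lower, with a median of -0.50, and Tpp2, which cuts long peptides in the cytosol, had -0.78. B-lineage and leukocyte markers were lower on the same array, with medians of -4.22 and -2.19. Their part in the proteasome and peptidase values was not tested.

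Folding and loading genes stood on the other side. Of 10 genes 7 were higher, with a median of 0.36, and 0 were past 2-fold, where 30.7% of all genes were. Pdia3 (ERp57, the partner of tapasin) led with 0.81, followed by Pdia6 with 0.76, and Calr, the chaperone calreticulin, had 0.42. The 15 measured genes for non-classical class I molecules had a median of 0.22, with 9 higher. Their extremes were Cd1d1, which presents lipids to NKT cells (-1.80), and Fcgrt, the neonatal Fc receptor (1.76), both partners of β2-microglobulin. Fibroblast markers were higher on the same array (median 1.56) and B-lineage markers lower (median -4.22). The part of these cells in the loading and non-classical values was not tested.

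Of the 23 regulators 12 were higher and 2 at least 2-fold lower, where 1734 of all 15283 genes were at least 2-fold lower. Those 2, Nfyb (-1.04) and Nfya (-1.01), encode subunits of the factor that binds CCAAT, and Rfx5 (-0.88) encodes a factor of the X box, though its probe was dim, with levels of -3.26 and -4.14. Irf1, a factor of interferon-γ signalling, was higher (0.50). Irf8, a factor of myeloid and B cells, was lower (-0.77). B-lineage and leukocyte markers were lower on the same array, with medians of -4.22 and -2.19, and their part in the regulator values was not tested. The 16 measured interferon-γ-inducible genes outside the pathway had a median of 0.45, with 11 higher. Past 2-fold were 5 of these 16 genes, 4 upward and 1 downward, a share near the 30.7% of all genes past 2-fold. Cxcl9, a T cell chemokine, led with 2.25, and Cd274 (PD-L1) had 0.67, whereas Gbp7 had -1.59. All 7 MHC class II presentation genes were higher with a median of 0.74, H2-Eb1 by 1.30. Of 12 macrophage markers 10 were higher as well, 6 at least 2-fold, at a median of 1.02 and with summed levels of 3.28 (Wt) and 3.99 (Sipa1-/-), and their part in the class II values was not tested.

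**Figure D4:**
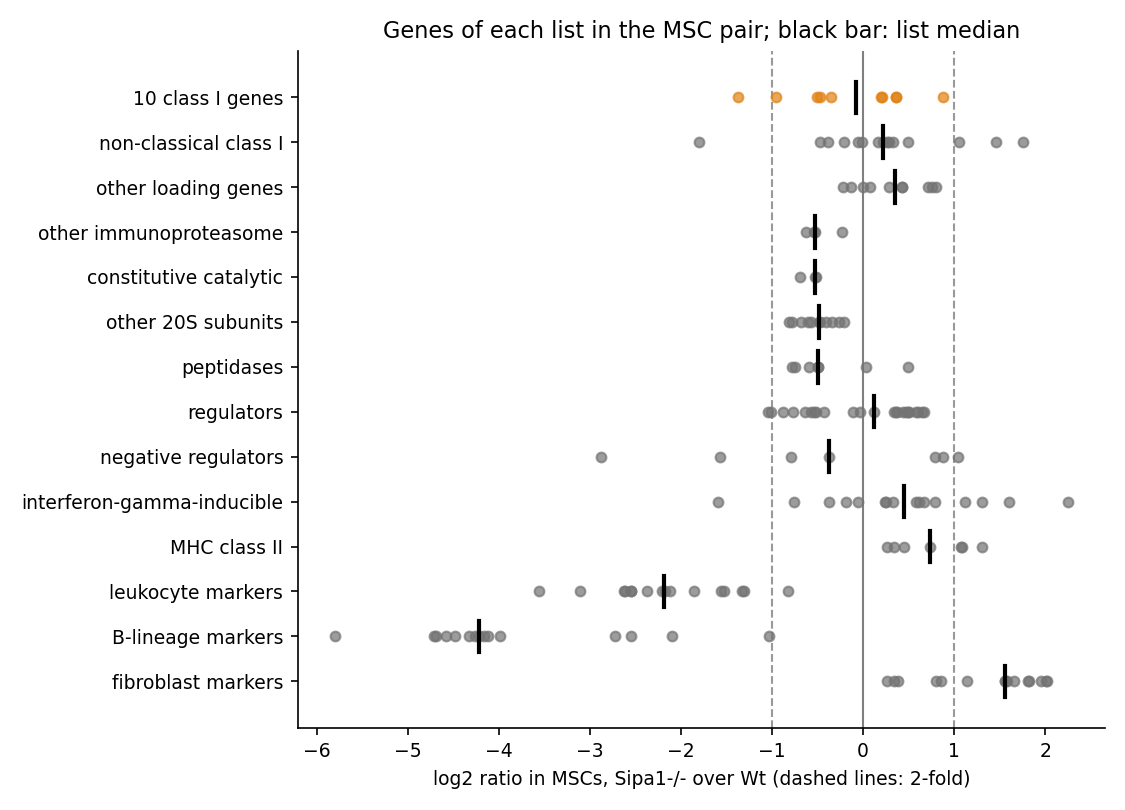
Log2 ratio of Sipa1-/- over Wt in MSCs for each measured gene (points) of the 10 class I genes, 10 other lists of the pathway or related genes and 3 marker lists (rows); black bars are list medians and dashed lines mark 2-fold. The proteasome rows lie wholly left of 0 with medians from -0.53 to -0.48, the MHC class II row wholly right with 0.74, and the B-lineage row farthest left with -4.22.

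In CD8+ T cells the same pathway lists were nearly level. Of the immunoproteasome, constitutive catalytic, other 20S, peptidase, loading, regulator and non-classical lists none had a gene past 2-fold. Few genes of any kind were past 2-fold in this pair, 4.06% of all genes. The medians of these lists lay between -0.14 and 0.13, against -0.02 for all genes. The 7 class II genes were all higher, at a median of 0.34, led by Cd74, the invariant chain, at 0.54.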

How the data were processed

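The series holds 4 Agilent one-color arrays (SurePrint G3 Mouse), MSCs and CD8+ T cells from Wt and Sipa1-/- tumors, with 1 array each. The deposited values are spot intensities that the authors' Feature Extraction software had corrected for background (version 9.1 per the submitters' notes, 12.0.3.1 per the file headers), on a linear scale. The series matrix holds the same intensities multiplied by 1 constant per array.

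Log2 signals were centred on the 75th percentile of the 59305 non-control spots of their array. A probe was used where the flags for saturation and uneven spot or background were 0 and those for signal above background were 1 on both arrays of a pair. Probe accessions were matched to a RefSeq table (GRCm38.p6), which named 57.6% of the spots, and means were taken over spots and then over probes. Counts use a log2 ratio of at least 1 in size. No test was run on single arrays, and depth is not defined for arrays.

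All 10 genes are named per probe. From each other list up to 4 genes with the largest ratio in MSCs and up to 2 in CD8+ T cells could be named, with direct partners (Psmb10, Psmb5, Psmb6, Psmb7, Psme1, Irf1, Rfx5, Calr; another is not reported here), Cxcl9, Cd274 and Sipa1. The genes and lists were chosen with earlier results of these data known. Motifs were searched in the 250 bases before each start site, and TGACG and GAANNGAAA were added after the sequences and array values were seen. The alternatives were a median shift, quantile normalization, the series matrix, normexp with an offset of 50, flags on at least 1 array, no flags, the brightest probe, and only genes above the median signal. Scripts ran in R 4.3.3 with limma 3.58.1 and in Python 3.11.15 with matplotlib 3.10.9, pandas 2.3.3 and numpy 2.4.6.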

Additional observations from a re-analysis of the deposited data

Results flagged for a closer look

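Of the 10 genes, 3 had ratios of opposite sign in the 2 cell types, each by more than 2 SD of spot noise in both cell types, and these differences were not tested. The share of all genes that meet this rule was not computed, so whether 3 of 10 is unusual is not known. For Tap1 the log2 ratio of Sipa1-/- over Wt was -0.36 (MSCs) and 0.26 (CD8+ T cells), a difference of -0.61. Psmb9 had -0.96 and 0.27, a difference of -1.23. Nlrc5 had -1.37 and 0.42, a difference of -1.79. The Nlrc5 difference depends on its dimmer probe, A_66_P113043, with ratios of -1.11 (MSCs) and 1.14 (CD8+ T cells), a difference of -2.26, whereas the brighter probe was lower in both cell types, with -1.62 and -0.31. Tap1 and Psmb9 had both signs under all 8 alternatives.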

How the results depend on the processing

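The sign of each member's ratio in the MSC pair was the same under all alternatives that gave it a value. H2-D1 (0.06) and Tap2 (0.07) came close to spot noise under the median shift. Of the 40 member ratios over the 4 comparisons, 13 turned sign under at least 1 alternative, 8 of them in the CD8+ T pair, and 0 that was past 2-fold did. The median over the members in the MSC pair, -0.08, was -0.22 under the median shift, 0.13 with the series matrix values and 0.20 over the 8 genes above the median signal. In the CD8+ T pair the median, 0.11, was -0.034 under the median shift and 0.25 with the series matrix. For MSC over CD8+ T in Wt the median, -0.82, was -1.05 under the median shift, -0.74 under quantile normalization, -0.36 with the series matrix and -0.76 with normexp. In Sipa1-/- the median, -1.22, was -1.44, -1.32, -0.69 and -0.87 under the same 4 and -1.35 over genes above the median signal. The median difference between the cell types' ratios, -0.19, was -0.11 with normexp and 0.12 over genes above the median signal. Members at least 2-fold lower numbered 1 in the MSC pair, 2 under the median shift and 0 over genes above the median signal, where Nlrc5 and Erap1 were left out, and 1 (Tapbp) was at least 2-fold higher under quantile normalization and with the series matrix. For MSC over CD8+ T in Wt, members at least 2-fold lower numbered 3, 6 under the median shift and 1 with the series matrix. In Sipa1-/- they numbered 6, 4 with normexp, 3 with the series matrix and 5 of 9 over genes above the median signal. The cause of each move was not tested, except that the median shift and the series matrix move every gene of a pair by 1 constant.

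Over all genes the median ratio moved from 0.04 to -0.10 (median shift) and 0.25 (series matrix) in the MSC pair, from -0.02 to -0.17 and 0.11 in the CD8+ T pair, from -0.06 to -0.29 and 0.39 for the cell types in Wt, and from -0.18 to -0.41 and 0.34 in Sipa1-/-. Relative to it the members' medians were the same as in the main setting, -0.12, 0.14, -0.76 and -1.03. Genes past 2-fold numbered 4688 of 15283 in the MSC pair, 3017 of 15283 with normexp and 2210 of 7641 above the median signal. In the CD8+ T pair they numbered 582 of 14323, 206 of 14323 with normexp, 1052 of 15258 with flags on at least 1 array, 1692 of 22911 with no flags and 136 of 7161 above the median signal. Between cell types in Wt they numbered 4274 of 14210, 6870 of 22911 with no flags and 1721 of 7105 above the median signal, and in Sipa1-/- 5788 of 14279, and 2684 of 7139 above the median signal. The share of them that was higher was 63.0% in the MSC pair (74.1% with the series matrix), 65.5% in the CD8+ T pair (52.5% under the median shift, 76.3% with the series matrix, 52.4% with normexp), 57.4% between cell types in Wt (45.5% and 76.6% under the first 2) and 54.0% in Sipa1-/- (42.9% and 76.2%). No paired analysis was possible because the groups share only replicate number 1. An additive fit of cell type and genotype over the 4 arrays, which takes their interaction as error, was not run. Spot noise does not cover disagreement between probes of a gene, such as the -0.31 and 1.14 of Nlrc5 in the CD8+ T pair. The spread between mice is unknown.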

Other observations

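Genes known to lower class I or interferon signalling also differed between the MSC arrays. Ezh2, the methyltransferase of Polycomb complex PRC2, had the largest ratio of that list, -2.88 over 5 probes, and its partner Suz12 had -1.57. Both were at least 2-fold lower, while Socs3, an inhibitor of cytokine receptor signalling, was higher by 1.04. These were 3 of 7 genes past 2-fold, where 30.7% of all genes were. B-lineage markers were lower on the same array, 15 of 15 at least 2-fold with a median of -4.22, and their part in the Ezh2 and Suz12 values was not tested. In CD8+ T cells Ezh2 had 0.06 and Suz12 0.14, and Socs3 had -0.71. The 7 measured genes of the list had medians of -0.38 (MSCs) and 0.02 (CD8+ T cells).

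MHC class II genes were well above background on all 4 arrays, CD8+ T arrays included. H2-Eb1, a class II β chain, stood at 3.90 (Wt MSC), 5.20 (Sipa1-/- MSC), 7.48 (Wt CD8+ T) and 7.79 (Sipa1-/- CD8+ T). All 7 class II genes were at least 2-fold lower on the MSC array in both genotypes, with medians of -3.14 in Wt and -2.88 in Sipa1-/-. Of all genes 12.8% (Wt) and 18.6% (Sipa1-/-) were at least 2-fold lower. The 12 macrophage markers were also all lower on the Wt MSC array than on the Wt CD8+ T array, with a median of -2.03, and in Sipa1-/- 10 of 12 were lower with a median of -1.14, and their part in the class II levels was not tested.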
